A study of Homo sapiens with 4 samples.

Results

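The tubulin isotypes described here are the 10 α- and β-tubulin genes TUBA1A, TUBA1B, TUBA1C, TUBA4A, TUBB, TUBB2A, TUBB2B, TUBB3, TUBB4B and TUBB6, taken by gene symbol. All 10 were found among the 15218 genes of the count table and the 20263 genes of the TPM table, and all 10 were among the 14620 genes with enough counts to be tested. RNA was sequenced from HEK293T cells, a human embryonic kidney line carrying the SV40 large T antigen, in 2 FOXP4 KO libraries and 2 control libraries (genotype given only as control, with no vector named). The FOXP4 KO libraries bear KO1 in their titles and FOXP4 knock down as their genotype, and both groups were grown in DMEM with fetal bovine serum. The study describes its KO cells in one place as made by CRISPR-Cas9 and in another as 293T cells transduced with FOXP4 shRNA virus and selected with puromycin, so how FOXP4 was lowered is not settled by the sources. Both KO libraries carry the name of the same line, KO1, and no source states that they were cultured apart, so each p-value reflects only how much these 4 libraries vary, and that variation may be technical.

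α- and β-tubulin form the heterodimer from which microtubules are built, the polymers of the mitotic spindle, of cilia and of intracellular transport tracks. Mammals have several genes for each, which encode proteins that are nearly alike in the body of the molecule and differ mostly in the acidic C-terminal tail, the site that many modifying enzymes and microtubule-associated proteins recognise. Cells also adjust the stability of tubulin mRNA to the amount of free tubulin dimer, a feedback that is known as tubulin autoregulation.

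The coding ends of the β isotypes, which encode the tails, are shown as the last 60 coding bases of each, stop codon included. They come from the GENCODE v29 transcripts on GRCh38. Capitals mark bases that differ from, or have no partner in, TUBB.
TUBB (chromosome 6): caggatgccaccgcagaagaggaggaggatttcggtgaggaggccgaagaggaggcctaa
TUBB2A (chromosome 6): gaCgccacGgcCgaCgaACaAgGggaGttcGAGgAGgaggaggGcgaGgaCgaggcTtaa
TUBB2B (chromosome 6): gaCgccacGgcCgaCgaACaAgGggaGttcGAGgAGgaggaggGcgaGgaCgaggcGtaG
TUBB3 (chromosome 16): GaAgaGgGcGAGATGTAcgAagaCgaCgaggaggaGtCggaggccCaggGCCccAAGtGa
TUBB4B (chromosome 9): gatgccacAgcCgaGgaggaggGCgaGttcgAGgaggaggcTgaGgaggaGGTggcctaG
TUBB6 (chromosome 18): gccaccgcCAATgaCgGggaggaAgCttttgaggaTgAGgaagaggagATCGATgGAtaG
The number of differing bases was 14 in TUBB4B, 18 in TUBB2A, 19 in TUBB2B, 20 in TUBB6 and 25 in TUBB3. These counts include the stop codon and bases that leave the encoded amino acid the same, so they do not measure how far the tails differ. TUBB2A and TUBB2B differ from each other only in the stop codon and in the codon before it, which encodes alanine in both. Over the whole coding sequence TUBA1A and TUBA1B were 97.2% identical and TUBB2A and TUBB2B 98.1%, while TUBB4B and TUBB were 84.4% identical and TUBA4A and TUBA1B 85.7%.

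The deposited counts summed to 42150257 and 41796690 per FOXP4 KO library, against 36393224 and 43057305 per control library. FOXP4 itself had 713 and 886 counts in the FOXP4 KO libraries, against 2562 and 2463 in the control libraries, so the targeted gene was low where the labels place it. The HEK293T and embryonic kidney markers PAX2, LHX1, GATA3, NEFL, NEFM, INA and WT1 were detected in all 4 libraries. INA and NEFM were higher in FOXP4 KO cells (log2 fold change 2.36 and 1.97). The other 5 did not pass, at 0.26 for NEFL, 0.01 for LHX1, −0.22 for GATA3, −0.48 for WT1 and −0.59 for PAX2. The 8 neuron markers summed to 29.3 to 30.9 TPM in the FOXP4 KO libraries and 22.4 to 32.3 TPM in the control libraries, with RBFOX3 lower (log2 fold change −1.52). The other 4 tested neuron markers had positive values that did not pass, at 0.62 for MAP2, 0.59 for SNAP25, 0.52 for SYP and 0.39 for SYT1. ELAVL4 had 0.25 and 0.328 TPM in FOXP4 KO cells and 0.0658 and 0 TPM in control cells, while DCX and STMN2 were at 0 TPM in both FOXP4 KO libraries and at most 0.0926 TPM in control libraries. Of the markers of other cells, HBB and UMOD were at 0 TPM in all 4 libraries. The 5 fibroblast markers summed to 7.72 to 12.1 TPM in FOXP4 KO cells and 6.99 to 8.49 TPM in control cells, with PDGFRB higher (log2 fold change 2.11) and LUM at no more than 0.0308 TPM in FOXP4 KO cells, against 0.95 and 1.14 TPM in control cells. The 4 kidney tubule markers summed to 8.03 to 8.19 TPM in FOXP4 KO cells and 3.86 to 6.32 TPM in control cells, most of it LRP2, which was higher (log2 fold change 0.76). The part of these markers in the tubulin values was not tested.

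TUBA4A rose in FOXP4 KO cells, TUBB4B, TUBB6 and TUBA1A fell, and the other 6 isotypes did not pass the test. Thus 1 of the 10 isotypes was higher, against 13.8% of all tested genes, and 3 of 10 were lower, against 12.1% of all tested genes (adjusted p under 0.05, edgeR's quasi-likelihood test with Benjamini-Hochberg adjustment over all tested genes). The median log2 fold change of the isotypes was −0.35, against 0.01 over all tested genes. In bulk RNA, a change in every cell and a change in the number of cells that express a gene cannot be told apart. Levels in the next paragraphs are given as CPM, counts scaled to a common library size with TMM factors, which are not corrected for length. Every log2 fold change (log2FC) is FOXP4 KO over control and stands with its standard error (SE).

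**Figure D1:**
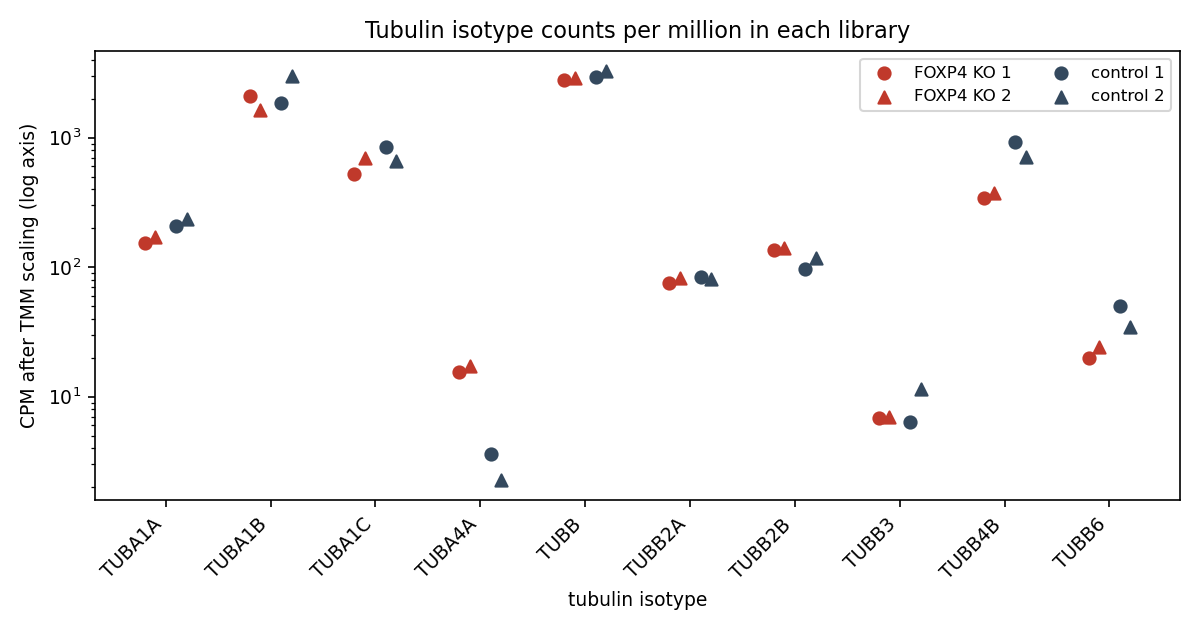
CPM (counts scaled to a common library size by TMM, on a log axis) of the 10 tubulin isotypes, with 1 point for each of the 2 FOXP4 KO libraries (red) and the 2 control libraries (dark). TUBA4A lies above both control libraries and TUBB4B, TUBB6 and TUBA1A below them, while the points of TUBA1B, TUBA1C, TUBB2A and TUBB3 overlap between the groups.

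TUBA4A, an α isotype known for high levels in platelets, brain and muscle, had 665 and 717 counts in the FOXP4 KO libraries, against 128 and 98 counts in the control libraries. In CPM this was 16.3 ± 1.23 in FOXP4 KO cells and 2.94 ± 0.949 in control cells (SD, n = 2 each). Both FOXP4 KO libraries thus lay far above both control libraries, and the log2FC was 2.47 ± 0.26 (SE, adjusted p = 0.0040 by edgeR), a 5.56-fold higher level. The call held with any 1 library left out, with log2 fold changes of 2.16 to 2.82. TUBA4A lies on the reverse strand of chromosome 2 at 219249711 to 219278170 (GRCh38), and its 3′ part overlaps STK16 on the opposite strand. Of the windows of 100 bases in its main transcript, 25.6% also occur in STK16 transcripts, read on either strand. STK16, a kinase gene named here after its values were seen, had 2050 and 1781 counts in FOXP4 KO cells and 1290 and 1627 in control cells, with a log2FC of 0.28 that did not pass (adjusted p = 0.14, edgeR). Whether the counting used strand is not given in the sources used here, so reads from the overlap cannot be assigned to either gene with certainty.

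The other α genes lie side by side on chromosome 12 and are the ubiquitous α isotypes, with TUBA1A best known for its role in the developing brain. TUBA1B carried most α-tubulin counts, with 90513 and 67894 in the FOXP4 KO libraries, against 66012 and 129709 in the control libraries. The control libraries differed from each other more than the groups did, and its log2FC of −0.39 ± 0.26 (SE, adjusted p = 0.30 by edgeR) did not pass. Leaving out control replicate 2 gave −0.01 and leaving out control replicate 1 gave −0.71, so most of its size came from control replicate 2. TUBA1C had 22638 and 28911 counts in FOXP4 KO cells and 30048 and 28444 in control cells, with overlapping groups and a log2FC of −0.31 ± 0.19 (SE, adjusted p = 0.27 by edgeR). TUBA1B and TUBA1C ran opposite to each other inside each group: the library of a group with more TUBA1B had less TUBA1C, in FOXP4 KO cells as in control cells.

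TUBA1A had 6593 and 7210 counts in the FOXP4 KO libraries and 7403 and 10162 in the control libraries. In CPM it averaged 163 ± 13.9 in FOXP4 KO cells and 222 ± 18.7 in control cells (SD, n = 2 each), and it was lower in both FOXP4 KO libraries. Its log2FC was −0.45 ± 0.12 (SE, adjusted p = 0.043 by edgeR). This call was the weakest of the 4. Leaving out any 1 of the 4 libraries ended it, with adjusted p of 0.051 without control replicate 1, 0.095 without control replicate 2, 0.21 without FOXP4 KO replicate 1 and 0.093 without FOXP4 KO replicate 2 (edgeR). Summing TUBA1A, TUBA1B and TUBA1C into 1 gene gave a log2FC of −0.37 (adjusted p = 0.18, edgeR).

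TUBB4B is a broadly expressed β isotype that is also a main β-tubulin of cilia, and it showed the largest fall among the isotypes. It had 14747 and 15532 counts in the FOXP4 KO libraries, against 32711 and 30749 counts in the control libraries. In CPM it averaged 357 ± 21.0 in FOXP4 KO cells and 817 ± 149 in control cells (SD, n = 2 each). The lowest control library had more counts than either FOXP4 KO library by a wide margin, and the log2FC was −1.20 ± 0.16 (SE, adjusted p = 0.0065 by edgeR), a 2.29-fold lower level. It passed with any 1 library left out, with log2 fold changes of −1.38 to −1.02. Of the windows of 100 bases in its transcript 4.49% occur in another gene, and of those of 50 bases 14.6%. At either length most of its sequence can thus be told from that of the other isotypes.

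TUBB6, a minor β isotype of many tissues, had 857 and 1007 counts in FOXP4 KO cells and 1775 and 1495 in control cells. In CPM it averaged 22.0 ± 2.99 in FOXP4 KO cells and 42.4 ± 10.9 in control cells (SD, n = 2 each), with no overlap between the groups. The log2FC was −0.95 ± 0.21 (SE, adjusted p = 0.024 by edgeR), a 1.93-fold lower level. TUBB6 kept its call without control replicate 2 (adjusted p = 0.015) and lost it without control replicate 1 (adjusted p = 0.058, log2 fold change −0.68), without FOXP4 KO replicate 1 (adjusted p = 0.11) and without FOXP4 KO replicate 2 (adjusted p = 0.057, all from edgeR). No window of 100 bases of its main transcript is shared with another gene, and 0.99% of those of 50 bases are. The TUBB6 gene does overlap AFG3L2 on the opposite strand. AFG3L2, named here after its values were seen, had 4693 and 4152 counts in FOXP4 KO cells and 4740 and 5652 in control cells. Its log2FC of −0.35 did not pass (adjusted p = 0.062, edgeR).

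TUBB, the main β isotype of proliferating cells, had 119708 and 121905 counts in the FOXP4 KO libraries and 103782 and 141063 in the control libraries. Its log2FC was −0.12 ± 0.14 (SE, adjusted p = 0.56 by edgeR), which did not pass. In CPM both FOXP4 KO libraries, at 2775 and 2916, lay just below both control libraries, at 2928 and 3266. TUBB2B, a β isotype of developing neurons, had 5804 and 5930 counts in FOXP4 KO cells and 3415 and 5071 in control cells. Both FOXP4 KO libraries lay above both control libraries, but the log2FC of 0.37 ± 0.13 (SE, adjusted p = 0.084 by edgeR) did not pass. Without control replicate 2 it was 0.51 and passed (adjusted p = 0.039, edgeR).

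TUBB2A, the neighbour of TUBB2B on chromosome 6, had 3258 and 3471 counts in FOXP4 KO cells and 2965 and 3513 in control cells, with a log2FC of −0.06 ± 0.11 (SE, adjusted p = 0.73 by edgeR). The direction of this small value was not stable, since it was 0.01 without FOXP4 KO replicate 1 and 0.02 with upper-quartile scaling. TUBB2A and TUBB2B share much of their sequence, and their sum had a log2FC of 0.20 (adjusted p = 0.24, edgeR). TUBB3, a β isotype used as a marker of neurons, had 294 and 289 counts in FOXP4 KO cells and 227 and 496 in control cells. Its log2FC of −0.38 ± 0.29 (SE, adjusted p = 0.37 by edgeR) did not pass and turned to 0.09 without control replicate 2, and the FOXP4 KO libraries lay between the control libraries in counts.

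**Figure D2:**
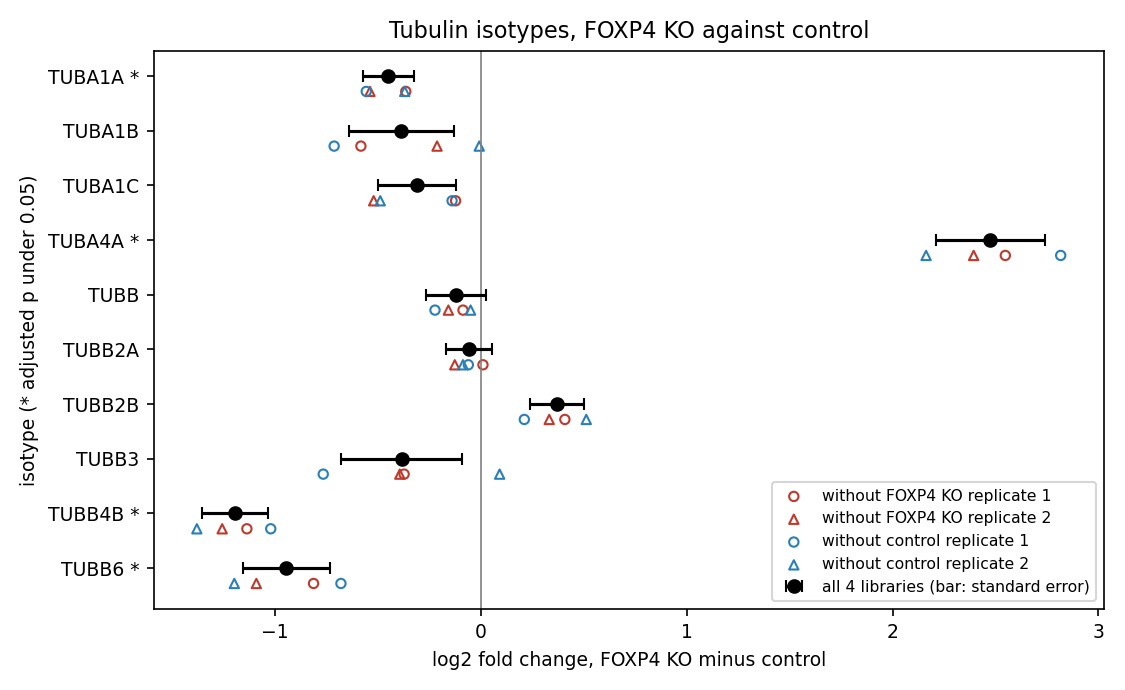
Log2 fold change of each isotype, FOXP4 KO over control. Black points with bars show the estimate and standard error from all 4 libraries, open symbols the estimate with 1 library left out, and stars the isotypes with an adjusted p under 0.05. TUBA4A at 2.47 and TUBB4B at −1.20 stay on their side of 0 with every library left out, while TUBB3 and TUBB2A cross it.

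Levels were compared between isotypes only as TPM, which are corrected for transcript length. The deposited TPM columns of the FOXP4 KO group could not be tied to the numbered count columns, so the FOXP4 KO values are given here from low to high. TUBA1B was the highest isotype in every library, at 2219 and 2539 TPM in FOXP4 KO cells and 2725 and 3775 TPM in control cells. TUBB followed, at 2080 and 2162 TPM in FOXP4 KO cells and 2206 and 2519 TPM in control cells. These 2 isotypes did not overlap within either group.

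Below them the order differed between the groups. In FOXP4 KO cells TUBB4B, at 420 and 451 TPM, lay within the range of TUBA1C, at 394 and 487 TPM. In control cells TUBB4B stood clear above TUBA1C, at 1139 and 899 TPM for TUBB4B and 610 and 504 TPM for TUBA1C. TUBA1A had 194 and 227 TPM in FOXP4 KO cells and 290 and 332 TPM in control cells. TUBB2B and TUBB2A were separate in FOXP4 KO cells, at 134 and 139 TPM for TUBB2B and 95.1 and 103 TPM for TUBB2A. In control cells they overlapped, at 96.3 and 120 TPM for TUBB2B and 106 and 105 TPM for TUBB2A.

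The lowest isotypes were TUBB6, TUBA4A and TUBB3. TUBB6 had 33.1 and 35.1 TPM in FOXP4 KO cells and 69.6 and 51.5 TPM in control cells. TUBA4A, at 14.4 and 14.8 TPM in FOXP4 KO cells, lay above TUBB3 there, which had 7.70 and 7.98 TPM. In control cells TUBA4A was the lowest of all, at 3.68 and 2.16 TPM, below TUBB3 at 9.01 and 12.9 TPM. TUBA1B, TUBA1C, TUBB2A and TUBB3 overlapped between the groups in CPM. In TPM both FOXP4 KO libraries lay below both control libraries for each of them. The cause of this difference between CPM and TPM was not tested.

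The summed α and β tubulin did not pass the test in either family. The 4 α isotypes together had 2948 and 3142 TPM in FOXP4 KO cells and 3629 and 4613 TPM in control cells, and their summed counts gave a log2FC of −0.37 ± 0.18 (SE, adjusted p = 0.19 by edgeR). The 6 β isotypes together had 2769 and 2899 TPM in FOXP4 KO cells and 3626 and 3708 TPM in control cells, with a log2FC of −0.27 ± 0.14 (SE, adjusted p = 0.20 by edgeR). Both FOXP4 KO libraries were below both control libraries in TPM in each family. The ratio of α to β TPM was 1.02 and 1.14 in FOXP4 KO cells and 1.001 and 1.24 in control cells, so the groups overlapped. All 10 isotypes took 0.629% and 0.605% of the counts in the FOXP4 KO libraries, against 0.683% and 0.815% in the control libraries. The α value depended on which control library was used, at −0.15 without control replicate 2 and −0.58 with control replicate 1 left out.

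The make-up of the β family differed between the groups, mainly in TUBB and TUBB4B. TUBB made up 74.6% and 75.1% of the β TPM in FOXP4 KO cells, against 60.9% and 67.9% in control cells. TUBB4B made up 15.2% and 15.6% in FOXP4 KO cells, against 31.4% and 24.3% in control cells. The mean share of TUBB4B thus differed by −12.5 percentage points and that of TUBB by 10.5, and neither overlapped between the groups. TUBB2B made up 4.81% and 4.83% in FOXP4 KO cells and 2.66% and 3.24% in control cells, and TUBB2A 3.44% and 3.57% in FOXP4 KO cells and 2.92% and 2.84% in control cells. TUBB6 held 1.19% and 1.21% in FOXP4 KO cells and 1.92% and 1.39% in control cells, and the shares of TUBB3 overlapped, at 0.275% and 0.278% in FOXP4 KO cells and 0.249% and 0.347% in control cells. Shares of one total are tied together, so a lower share of TUBB4B raises the sum of the other shares by construction.

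Among the α isotypes, TUBA4A alone had shares that did not overlap, at 0.457% and 0.502% in FOXP4 KO cells against 0.101% and 0.0467% in control cells. TUBA1B made up 75.3% and 80.8% of the α TPM in FOXP4 KO cells and 75.1% and 81.8% in control cells. TUBA1C made up 12.6% and 16.5% in FOXP4 KO cells and 16.8% and 10.9% in control cells, and TUBA1A 6.18% and 7.71% in FOXP4 KO cells and 7.99% and 7.19% in control cells. Shares of counts instead of TPM gave the same directions for all 10 isotypes, with a difference of −9.38 points for TUBB4B and 8.03 points for TUBB. In counts, the difference was −6.52 points for TUBB4B and 5.18 points for TUBB without control replicate 1, the library with the largest TUBB4B share. With 2 libraries a group, a two-sided exact permutation test over libraries cannot go below p = 0.33, so no share was tested.

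**Figure D3:**
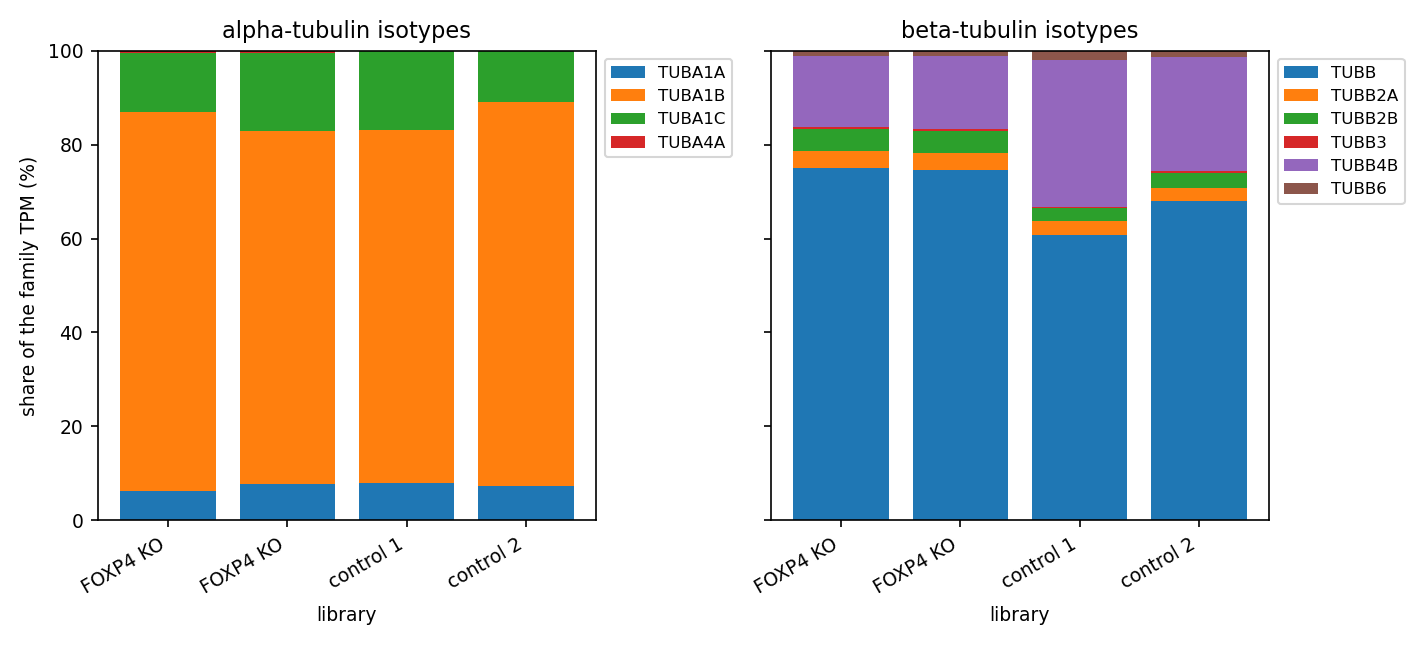
Share (%) of each isotype in the summed TPM of the α isotypes (left) and β isotypes (right), with 1 bar for each FOXP4 KO and control library. The TUBB4B section covers 15.2% and 15.6% of the β total in FOXP4 KO cells and 31.4% and 24.3% in control cells, whereas the sections of TUBA1A, TUBA1B and TUBA1C overlap between the groups.

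How far reads could be assigned to an isotype depends on its sequence, so each main transcript was cut into windows of 100 bases and matched exactly to all annotated transcripts, on both strands. Among the isotypes themselves, TUBB2A shared 54.4% of its windows with TUBB2B, and TUBB2B shared 42.4% with TUBB2A. TUBA1B shared 32.1% of its windows with another of the 10, TUBA1A 26.6% and TUBA1C 11.5%. TUBA4A, TUBB and TUBB6 shared none with another isotype. Against all genes, TUBB3 shared 89.0% of its windows with AC092143.1, a gene annotated over it on the same strand, and TUBA1B shared 65.4% with AC011603.2, annotated as antisense. TUBA4A shared 27.4% of its windows and TUBB 20.4% with genes outside the 10 isotypes, mostly STK16 and AL662797.1. The values of TUBA1A, TUBA1B, TUBA1C, TUBA4A, TUBB, TUBB2A, TUBB2B and TUBB3 are therefore uncertain as to the split between genes, more so than those of TUBB4B and TUBB6. How the counting treated reads that match several genes is not given in the sources used here.

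**Figure D4:**
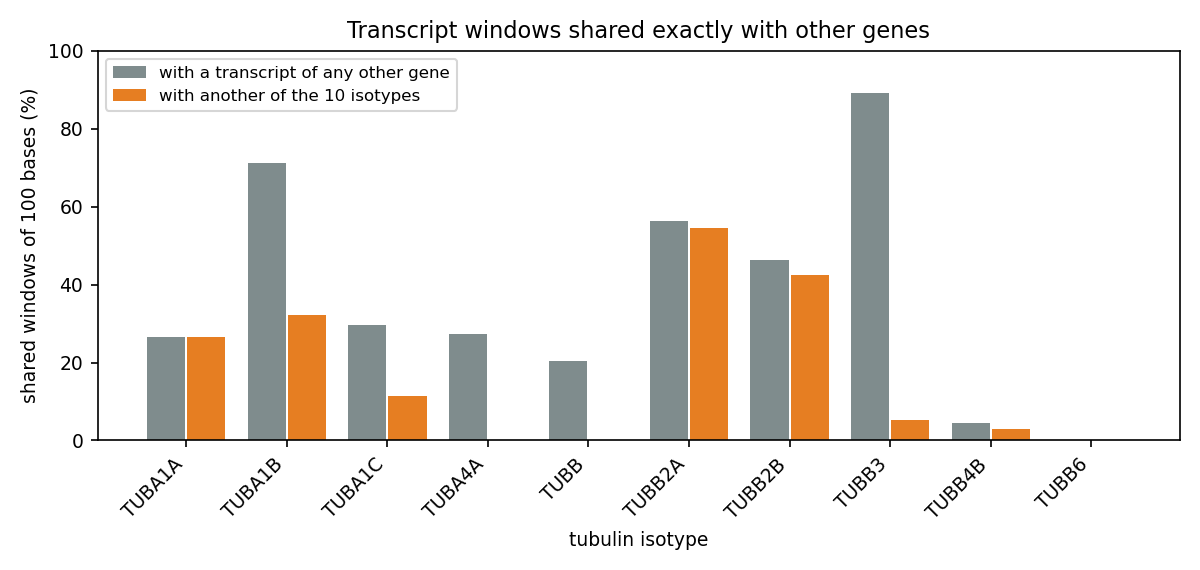
Percentage of windows of 100 bases in the main transcript of each isotype that occur exactly in a transcript of any other gene (grey) or of another of the 10 isotypes (orange). TUBB3 (89.0%) and TUBA1B (71.1%) share the most with any gene, TUBB2A (54.4%) the most with another isotype, and TUBB6 nothing.

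The positions of the isotypes were set beside the fold changes of the genes around them, taking the tested genes that start within 1 Mb. Over all tested genes 13.8% were higher and 12.1% lower, the shares against which the counts of neighbours stand. TUBA4A had 38 such neighbours, of which 1 was higher and 9 were lower, with a median log2FC of −0.21, and TUBA4A lay above the highest of them (1.45). Around TUBB4B (chromosome 9, 137241213 to 137243707, GRCh38) 7 of 60 neighbours were higher and 18 lower, with a median of −0.27 and a range of −1.83 to 2.14 that holds TUBB4B. With any 1 library left out fewer neighbours of TUBB4B and of TUBA4A were lower. Fewer of all tested genes were lower in each of these fits as well, so the shares above do not apply to them. TUBB6 (chromosome 18, 12307669 to 12344320) had 13 neighbours, of which 0 were higher and 0 lower by edgeR (0 higher and 1 lower at an unadjusted p under 0.05 and by DESeq2). Their median was −0.12 and their lowest value −0.89, just above the −0.95 of TUBB6.

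TUBB3 (chromosome 16, 89921392 to 89938761) stood among genes that were mostly lower. Of its 23 tested neighbours 18 were lower and 0 higher by edgeR (0 higher at an unadjusted p under 0.05 and by DESeq2), their median log2 fold change was −0.82, and the highest was −0.25. With any 1 library left out fewer of these neighbours were lower, but some still were in every such fit. Fewer of all tested genes were lower in these fits as well. TUBB3, at −0.38, lay among the least negative values of that region. The region around TUBB had 4 of 49 neighbours higher and 8 lower, with a median of −0.01. With either FOXP4 KO library left out both numbers were smaller, as were those over all tested genes. The number lower fell without control replicate 1 and rose without control replicate 2. The 16 neighbours of TUBB2A and TUBB2B had a median of −0.11, and the neighbours of the α genes on chromosome 12 had medians of −0.08 to −0.06. The part that neighbouring genes have in the values of TUBB4B and TUBB3 was not tested.

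**Figure D5:**
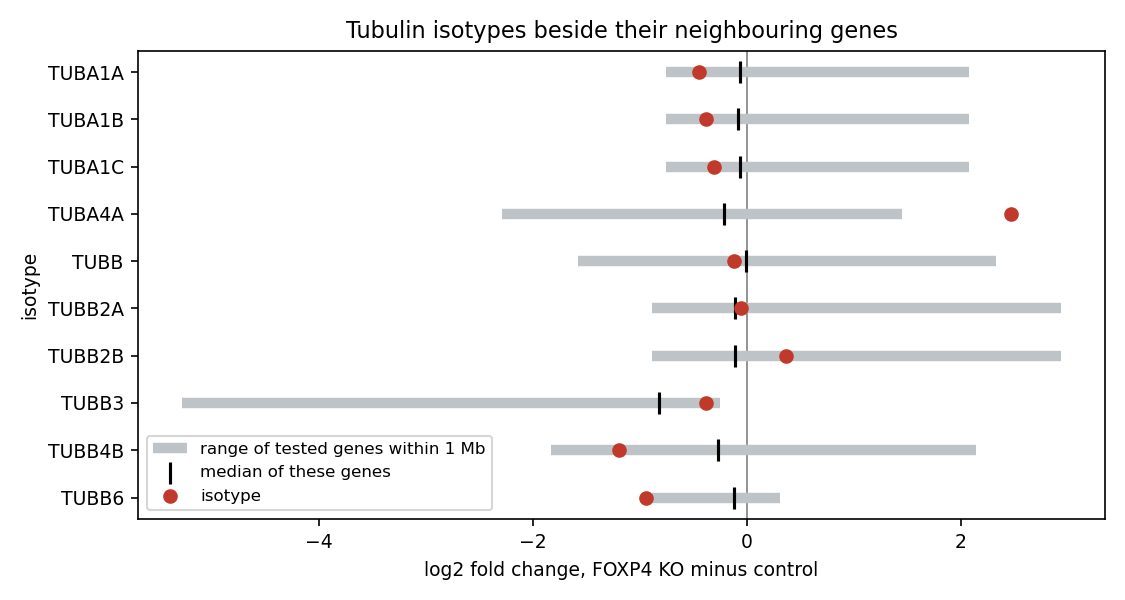
Log2 fold change (FOXP4 KO over control) of each isotype (red) beside the range (grey bar) and median (black tick) of the tested genes that start within 1 Mb of it. TUBA4A at 2.47 lies outside the range of its neighbours, and all neighbours of TUBB3 are below 0.

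The promoters of TUBB4B and TUBA4A, the isotypes with the largest fall and the largest rise, are shown as the 250 bases before the RefSeq start (GRCh38.p14), with CCAAT or its complement ATTGG in capitals. CCAAT is the core of the box bound by the factor NF-Y. The RefSeq start of TUBA4A lies inside its GENCODE gene span. The upper end of that span, 219278170, was its start for the neighbouring genes.
TUBB4B (chr9:137241037-137241286, forward strand): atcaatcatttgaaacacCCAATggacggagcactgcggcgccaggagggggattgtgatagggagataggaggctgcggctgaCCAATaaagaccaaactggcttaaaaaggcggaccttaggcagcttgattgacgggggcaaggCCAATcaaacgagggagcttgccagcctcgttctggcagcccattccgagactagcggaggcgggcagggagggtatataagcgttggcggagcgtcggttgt
TUBA4A (chr2:219253919-219254168, reverse strand): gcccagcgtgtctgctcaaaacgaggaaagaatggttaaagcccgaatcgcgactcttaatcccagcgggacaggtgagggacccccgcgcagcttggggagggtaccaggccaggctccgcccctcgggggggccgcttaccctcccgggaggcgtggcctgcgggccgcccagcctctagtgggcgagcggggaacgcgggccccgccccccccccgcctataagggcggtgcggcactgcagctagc
TUBB4B had 3 CCAAT matches and TUBA4A had 0. Of the other isotypes that fell, TUBA1A had 2, and the entries of TUBB6 had 0 and 1. Among the isotypes that did not pass, TUBA1B and TUBB2A had 0, TUBB2B had 1 and TUBA1C had 1 in each entry. The entries of TUBB had 1 and 0, and those of TUBB3 0 and 1. A link between these matches and the direction of change was not tested. Of the 35116 RefSeq promoters, 32.0% had at least 1 match and 2.93% had 3 or more. The 10 isotypes had 15 promoter entries, and 9 of these held CCAAT. The forkhead heptamer TGTTTAC, on either strand, was in 0 of the 15 entries and in 2.98% of all promoters 250 bases long. These are matches of letters in a short window and not binding sites.

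Of the other tubulin genes, TUBE1 and TUBD1 were higher in FOXP4 KO cells and the other 6 of the 8 tested did not pass, with 0 lower by edgeR (also 0 at an unadjusted p under 0.05 and by DESeq2). Over all tested genes 13.8% were higher and 12.1% lower. TUBE1, the ε-tubulin of centrioles, had 2195 and 2510 counts in FOXP4 KO cells and 796 and 1579 in control cells, with a log2FC of 0.91 ± 0.24 (SE, adjusted p = 0.037 by edgeR). TUBD1, the δ-tubulin of centrioles, had 566 and 584 counts in FOXP4 KO cells and 338 and 353 in control cells, with a log2FC of 0.61 ± 0.18 (SE, adjusted p = 0.048 by edgeR). Only 0 to 1 of the 8 passed upward with 1 library left out. TUBA8 had a log2FC of 0.99 that did not pass (adjusted p = 0.098, edgeR), as did the neuronal β gene TUBB4A at 0.29, the platelet β gene TUBB1 at −0.39, the γ-tubulins TUBG1 at −0.14 and TUBG2 at 0.07, and TUBA3D at 0.04. TUBA3E had 5 and 2 counts in FOXP4 KO cells and 4 and 2 in control cells and was too low to test, TUBA3C was listed at 0 TPM in all 4 libraries, and TUBB8 and TUBAL3 did not exceed 0.0958 TPM in any library.

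The counts of the genes that fold tubulin and sense its level, and those of the lists that follow, were often lower with 1 library left out, as were the upward calls over all genes except without control replicate 2 (2013 with all libraries, 1195 without control replicate 1, again 2013 without control replicate 2, 641 without FOXP4 KO replicate 1 and 639 without FOXP4 KO replicate 2). With all libraries 13.8% of all tested genes were higher and 12.1% lower, and 10842 of 14620 did not pass. Of 14 folding factors 1 passed upward, 2 passed downward and 11 did not pass, with a median log2FC of 0.05 against 0.01 over all tested genes. The higher one was ARL2, a small GTPase that works with the tubulin cofactors (log2 fold change 0.82). The lower ones were the prefoldin subunit VBP1 (−0.67) and the cofactor TBCD (−0.48), which assembles the dimer, while the prefoldin subunit PFDN2 had 0.38 and did not pass. With 1 library left out, 0 to 1 folding factors were higher and 0 to 2 lower. Of the 4 genes of autoregulation, 0 were higher and 0 lower by edgeR (1 higher and 0 lower at an unadjusted p under 0.05, and 0 in either direction by DESeq2). TTC5, which recognises tubulin as it emerges from the ribosome, had a log2FC of 0.05, its adaptor SCAPER 0.50, and the deadenylase subunits CNOT1 and CNOT11 −0.05 and −0.22, none of which passed.

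Among 22 tested enzymes that modify tubulin, 4 passed upward, 2 passed downward and 16 did not pass, with a median of 0.07, against 13.8% higher and 12.1% lower over all genes. The higher ones included TTLL6, TTLL1 and TTLL2, members of the family of tubulin tyrosine ligase-like enzymes. TTLL6, a polyglutamylase, had 55 and 57 counts in FOXP4 KO cells and 10 and 6 in control cells (log2FC 2.66, adjusted p = 0.011 by edgeR). TTLL1, the catalytic subunit of another polyglutamylase, had a log2FC of 1.69, and VASH2, which removes the terminal tyrosine of α-tubulin, had 1.01, whereas TPGS2, a subunit of the TTLL1 complex, was lower at −0.59. With 1 library left out, 0 to 4 of these enzymes were higher and 0 to 1 lower.

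Of 24 tested microtubule-associated proteins, 5 passed upward, 4 passed downward and 15 did not pass, with a median of −0.16, against 13.8% higher and 12.1% lower over all genes. MAP7D2, a relative of the kinesin recruiter MAP7, had 2843 and 3168 counts in FOXP4 KO cells and 742 and 794 in control cells (log2FC 1.85, adjusted p = 0.0018 by edgeR). EML3 was higher at 1.20, while MAP1A and MAP7D1 were lower at −1.79 and −0.998, so members of the MAP7 family stood on both sides. With 1 library left out, 2 to 5 were higher and 1 to 6 lower. Among 13 plus-end proteins and stathmins 2 passed upward, 1 passed downward and 10 did not pass (0 to 1 higher and 0 to 2 lower with 1 library left out). STMN1, which binds free tubulin dimers, was higher at 0.72 and the plus-end protein CLASP2 at 0.41, MAPRE2 was lower at −0.54, and CLIP1 at −0.46 did not pass.

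Of 8 severing enzymes and their partners, FIGN alone passed, upward at 0.77, and 0 were lower by edgeR (1 at an unadjusted p under 0.05, 0 by DESeq2). Over all tested genes 13.8% were higher and 12.1% lower. KATNAL1 at −0.44 and KATNA1 at 0.29 did not pass, and 0 to 2 were higher and 0 to 1 lower with 1 library left out. In the γ-tubulin ring complex and augmin, which nucleate microtubules, 4 of 18 passed upward (13.8% over all genes), 1 passed downward (12.1% over all genes) and 13 did not pass, but only 0 to 1 were higher and 0 to 2 lower with 1 library left out. The ring complex subunits TUBGCP3 and TUBGCP6 were higher at 0.58 and 0.45 and the augmin subunit HAUS3 at 0.46, while the ring complex subunit TUBGCP2 was lower at −0.72.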

How the data were processed

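RNA-seq libraries of 2 FOXP4 KO and 2 control samples of HEK293T cells were analysed. The authors deposited a table of whole-number counts per gene and a table of TPM values. The aligner, counter, annotation and strand setting were not given in the sources used here. Builds listed in the submitters' processing notes are GRCm38 and mm10, both of mouse, whereas the gene identifiers are human. RNA was extracted with TRIzol according to the study and with a column kit per the labels. The TPM columns of the FOXP4 KO group carry names that do not show which replicate they hold. The total counts were 36393224 to 43057305 per library.

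The count test was the quasi-likelihood test of edgeR 4.0.16 under R 4.3.3 (TMM factors, genes kept by filterByExpr, Benjamini-Hochberg adjustment over 14620 genes, threshold 0.05), FOXP4 KO over control with no covariate. Totals were tested in the same model after the isotypes of a family were summed. The common biological coefficient of variation was 0.165. The code was tested on simulated data. Alternatives were DESeq2 1.42.0, RLE and upper-quartile factors, no filter, a replicate block, leaving out each library, summed paralogs, and limma-trend 3.58.1 on log2(TPM + 1) or log2(TPM + 0.1) of genes with at least 1 TPM in 2 libraries, or of all genes. Leaving out each library for the lists of related genes and for neighbouring genes was added after seeing the data. Where a group was left with 1 library, it was assumed to vary like the other group.

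Transcripts were taken from GENCODE v29 (GRCh38) and promoters from RefSeq (GRCh38.p14), where all 10 isotypes matched by symbol, using Python 3.11.15. The isotypes and the lists of related genes were chosen with earlier results of these data known. All 10 isotypes, all other tubulin genes of the list and up to 4 genes with the lowest p of each list are named, except 1 that is not reported here. Blood markers (CD68, HBB, PTPRC) summed to 4.00 to 4.64 TPM in FOXP4 KO libraries and 3.04 to 5.92 TPM in control libraries.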

Additional observations from a re-analysis of the deposited data

How the results depend on the processing

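The number of isotypes called lower was 3 and called higher 1 with edgeR and TMM scaling. The same counts came from DESeq2, RLE factors, no filter on low counts and both limma-trend fits of filtered TPM. Upper-quartile scaling gave 2 lower, with TUBA1A at an adjusted p of 0.069 (edgeR) and TUBB2A reversed to 0.019. With that scaling 2383 of all genes were higher and 1368 lower, against 2013 and 1765. With 1 library left out, the number called lower ranged from 1 to 2 and the number called higher from 1 to 2, while over all genes 639 to 2013 were higher and 467 to 1614 lower. Limma-trend on log2(TPM + 1) without a filter called 0 isotypes higher and 0 lower, with 1 higher and 3 lower at an unadjusted p under 0.05, and 349 and 297 of all genes. TUBB2A ranged from −0.127 to 0.01 and TUBB3 from −0.766 to 0.091 with 1 library left out. The cause of these changes was not tested. The sum of TUBB2A and TUBB2B had 0.199, a value of both genes in which TUBB2B has the more counts, and not a new estimate of TUBB2A. Of the 125 alternative values of the isotypes' log2 fold changes, 107 kept their direction and side of the threshold, 13 lost a call, 1 gained one and 4 changed direction. The changes of direction include the sum of TUBB2A and TUBB2B set against TUBB2A. All 24 alternative values of the α and β totals kept their direction and side of the threshold. Of the 64 counts over the lists of related genes with 1 library left out, 25 stayed within 1.5 times, 32 were lower and 7 higher.

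The replicate numbers did not pair the libraries, since same-numbered libraries deviated from their group means with a correlation of −0.003 over 14620 genes. A replicate block gave 1 isotype higher and 3 lower, and log2 fold changes of −0.352 for the α total and −0.269 for the β total. With 2 libraries a group, small changes such as those of TUBB, TUBA1C or TUBB2A could not be told from the spread.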
